A study of Mus musculus with 12 samples.

Results

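Described here are 10 genes of the interleukin-6 family pathway in mouse retina. They comprise 4 ligands (Lif, Cntf, Clcf1 and Il6), 5 receptor genes (Il6st, Il6ra, Osmr, Lifr and Cntfr) and the feedback inhibitor Socs3. They were chosen by name for their place in the pathway, from a table of 24340 genes. Both retinas of 6 mice of the p16-3MR line, 12 to 16 weeks old, gave 12 RNA libraries. In this line the regulatory region of p16 drives a fusion of 3 parts, Renilla luciferase, monomeric RFP and the thymidine kinase of herpes simplex virus. Cells that express it are therefore killed by ganciclovir (GCV), and every group carried it. In each mouse 1 eye was held at an intraocular pressure (IOP) of 85 to 90 mm Hg for 60 min by saline infusion, and the contralateral eye served as the control. Mice 1, 2 and 5 were injected intraperitoneally with GCV at 25 mg/kg daily, mice 3, 4 and 6 had no GCV, and retinas were collected on day 3. The study's methods give PBS or vehicle as the sham treatment in general, without naming the one used for mice 3, 4 and 6. The 4 groups of 3 retinas are called ctrl, IOP, ctrl_GCV and IOP_GCV.

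Most cytokines of this family act through gp130, the shared signaling chain encoded by Il6st. LIF uses gp130 together with the LIF receptor. CNTF and CLCF1 use these chains plus the CNTF receptor alpha chain. IL-6 uses gp130 with its own alpha chain, and the oncostatin M receptor pairs with gp130 as well. Binding activates JAK kinases and the transcription factor STAT3, which turns on Socs3, and the SOCS3 protein then blocks signaling at gp130. In the retina LIF and CNTF are known as injury factors that act on Müller glia, photoreceptors and ganglion cells.

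Values were FPKM (fragments scaled to transcript length and to sequencing depth), a unit that allows levels of different genes to be compared per length. Differences are given on the scale of log2(FPKM + 1), which understates the change of genes under about 1 FPKM. Calls were made in limma at an adjusted p of less than 0.05, with Benjamini-Hochberg adjustment over the 18509 genes above 0 in at least 1 library. All 10 genes were among these, and 8 reached 1 FPKM in 3 or more libraries. Estimated depth was 3980000 to 9030000 fragments per library, lowest in the IOP retina of mouse 6. That library listed 135 genes at 0 that had at least 0.3 FPKM in every other library, against 1 to 6 such genes elsewhere. Rod genes summed to 30185 to 55784 FPKM, as a retina would give. Lens genes summed to 3275 to 7246 FPKM in the ctrl_GCV retina of mouse 1 and in 5 of the IOP-treated retinas, and to 6.65 to 130 FPKM elsewhere. Cdkn2a, which encodes p16, lay at 0 to 0.601 FPKM in all libraries.

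In mice without GCV, 4 of the 10 genes (Cntf, Il6st, Osmr and Socs3) rose after IOP elevation, where 1.65% of all genes were called and 1.42% called higher. With GCV, 3 were called higher (Cntf, Osmr and Socs3), where 1.8% of all genes were called and 1.65% called higher. All 3 of these calls were lost, with 0 members called, when only the ctrl_GCV and IOP_GCV retinas were fitted, where 0.0378% of all genes were called (adjusted p = 0.0525 for Cntf, 0.0678 for Osmr and 0.103 for Socs3). The same fit of ctrl and IOP retinas alone lost Cntf (adjusted p = 0.147) and Osmr (adjusted p = 0.0628). That fit called 3 members, where 1% of all genes were called, and Lif was among them. Over all 6 mice, the mean of both IOP effects called 7 genes, where 12.2% of all genes were called, 6.76% higher and 5.44% lower. Lif, Cntf, Il6ra, Il6st, Osmr and Socs3 rose and Cntfr fell. The median difference of the 10 genes was 0.70, and that of all genes 0.01. With the eyes of each mouse paired, 7 genes were again called over all mice (7.3% of all genes), 3 with GCV (0.778% of all genes), but only Cntf without GCV (0.405% of all genes). At an unadjusted p under 0.05, 5 members passed without GCV, 9 with GCV and 8 over all mice, where 18.9%, 19.2% and 30.3% of all genes did. Single libraries mattered in the small groups: without the control retina of mouse 3, or that of mouse 4, no member was called in mice without GCV, where 0.108% and 0.162% of all genes were. Over all mice, Cntf, Il6st, Osmr and Socs3 were called in every fit with a library removed, while Lif, Il6ra and Cntfr were not.

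**Figure D1:**
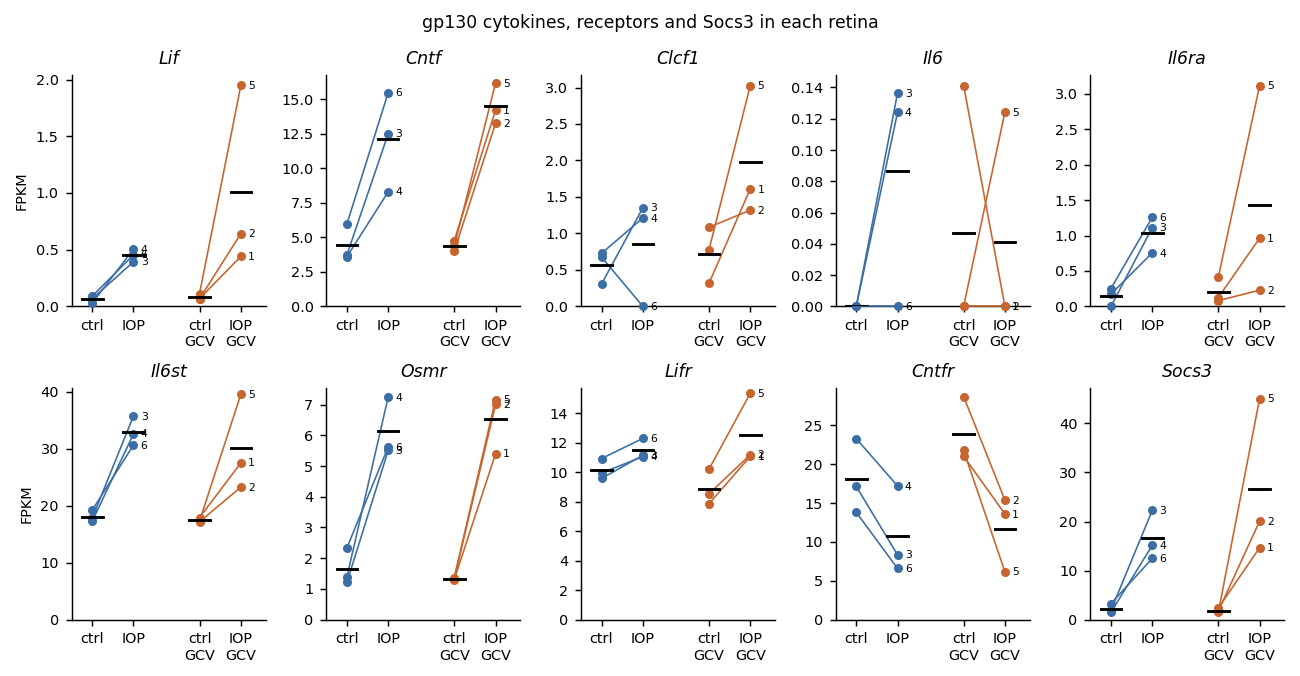
FPKM of each gene in each retina (vertical axes start at 0), with lines that join both eyes of a mouse, blue without GCV and orange with GCV. Numbers are mice and black bars are group means of 3 retinas; Socs3 lies at 12.5 to 45.1 FPKM after IOP elevation against 1.48 to 3.27 FPKM in control retinas.

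Cntf, ciliary neurotrophic factor, lies at chr19:12763528-12765632 (GRCm38) and had the highest level of the 4 ligands in every retina. It measured 3.72, 3.59 and 5.96 FPKM in the ctrl retinas of mice 3, 4 and 6, and 12.5, 8.30 and 15.5 FPKM in their IOP retinas. With GCV the control retinas of mice 1, 2 and 5 had 4.77, 4.0 and 4.35 FPKM and the IOP-treated ones 14.2, 13.3 and 16.2 FPKM. Every IOP-treated retina was above every control retina, and within mice Cntf was 2.31 to 3.72 times higher. The difference was 1.26 (SE 0.22, adjusted p = 0.0257) without GCV and 1.53 (SE 0.22, adjusted p = 0.00959) with GCV, and with the eyes paired the adjusted p were 0.0391 and 0.0258. Its span is overlapped by the long noncoding RNA Gm44505, which also overlaps the neighbouring gene Zfp91. Zfp91 had 34.5 to 38.0 FPKM in control retinas and 32.5 to 61.0 FPKM in IOP-treated ones, its highest value in the shallow library of mouse 6, and was not called (adjusted p = 0.605 over all mice).

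Lif, leukemia inhibitory factor (chr11:4257568-4272514), was low in control retinas, at 0.0668, 0.0285 and 0.0893 FPKM without GCV and 0.0689, 0.0674 and 0.113 FPKM with GCV. These levels correspond to 1 to 3 estimated fragments per library. IOP-treated retinas had 0.393, 0.505 and 0.454 FPKM in mice 3, 4 and 6, and 0.441, 0.642 and 1.95 FPKM in mice 1, 2 and 5. The groups did not overlap. Summed over 6 libraries each, 133 estimated fragments in IOP-treated retinas stood against 13 in control retinas, a ratio per fragment sequenced of 11.0 (exact 95% interval 6.20 to 21.1, counting error only). The IOP_GCV retina of mouse 5 held 66 of the 133, and without it the ratio was 6.88 (3.77 to 13.6). Lif passed over all 6 mice (difference 0.63, SE 0.15, adjusted p = 0.0242), but not in the groups of 3 mice in the main fit (adjusted p = 0.27 and 0.0771). It was called without GCV when ctrl and IOP retinas alone were fitted, and with GCV at a pseudocount of 0.1. With 1 library left out, its adjusted p ranged from 0.000673 to 0.0698 and it was called in 5 of 12 fits.

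Clcf1, cardiotrophin-like cytokine factor 1 (chr19:4214238-4223505), had 0.307, 0.727 and 0.676 FPKM in ctrl and 1.35, 1.21 and 0 FPKM in IOP retinas of mice 3, 4 and 6. In the GCV-treated mice 1, 2 and 5 it had 0.316, 1.08 and 0.773 FPKM in the control eyes and 1.61, 1.32 and 3.03 FPKM in the IOP-treated eyes. It was higher after IOP elevation in 5 mice and listed at 0 in the shallow library of mouse 6, where it is among the 135 genes at 0 in that library alone, so that this 0 may be a failed estimate. It was not called over all mice (difference 0.46, 95% interval -0.06 to 0.99, adjusted p = 0.218), and passed without that library (0.66, adjusted p = 0.0473). Il6 (chr5:30013114-30019975) was listed above 0 in 4 libraries, each at about 1 estimated fragment. These were the IOP retinas of mice 3 and 4, the ctrl_GCV retina of mouse 2 and the IOP_GCV retina of mouse 5, at 0.124 to 0.141 FPKM. With 3 fragments against 1, the ratio had an exact 95% interval of 0.258 to 169, so a change of Il6 was not detectable at this depth. The spans of Clcf1, Il6 and Il6ra overlap annotated noncoding RNAs, with which reads could be shared if strand was not used in counting.

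Of the receptors, Il6st (chr13:112464070-112506860) encodes the signaling chain shared by LIF, CNTF, CLCF1 and IL-6. It varied little among control retinas, with 17.8, 17.3 and 19.2 FPKM without GCV and 17.9, 17.2 and 17.3 FPKM with GCV. IOP-treated retinas had 35.8, 32.6 and 30.6 FPKM in mice 3, 4 and 6, and 27.5, 23.3 and 39.6 FPKM in mice 1, 2 and 5. The groups did not overlap, and within mice Il6st was 1.35 to 2.28 times higher. The difference was 0.83 (SE 0.16, adjusted p = 0.0321) without GCV, which was lost with the eyes paired (adjusted p = 0.0977), and 0.72 (SE 0.16, adjusted p = 0.0521) with GCV. Over all 6 mice it was 0.77 (SE 0.11, adjusted p = 0.00278), and it was called in all 12 fits with a library removed.

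Osmr (chr15:6813568-6874968), the oncostatin M receptor, had the largest difference among the receptors on the log2(FPKM + 1) scale. It had 1.21, 1.39 and 2.33 FPKM in ctrl retinas of mice 3, 4 and 6 and 5.51, 7.24 and 5.62 FPKM in their IOP retinas. Control retinas of mice 1, 2 and 5 lay close together, at 1.31, 1.33 and 1.37 FPKM, and their IOP-treated retinas had 5.40, 7.0 and 7.16 FPKM. The level was 2.41 to 5.25 times higher within mice. The difference was 1.45 (SE 0.19, adjusted p = 0.0105) without GCV and 1.68 (SE 0.19, adjusted p = 0.00435) with GCV. With the eyes paired the first of these did not pass (adjusted p = 0.0578) and the other did (adjusted p = 0.0369).

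Lifr (chr15:7090610-7197489), the LIF receptor, had 9.57, 9.94 and 10.9 FPKM in ctrl and 11.1, 11.0 and 12.3 FPKM in IOP retinas of mice 3, 4 and 6. In mice 1, 2 and 5 it had 7.85, 8.53 and 10.2 FPKM in control eyes and 11.1, 11.2 and 15.3 FPKM after IOP elevation. It was 1.11 to 1.5 times higher within mice and the groups did not overlap, but the difference over all mice did not pass (0.31, 95% interval 0.08 to 0.53, adjusted p = 0.0701). In all, 6 of the 10 genes lay higher in each of the 6 IOP-treated retinas than in any control retina, as did 5.47% of all genes. None of the 10 lay lower in all of them, as did 2.44% of all genes.

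Il6ra (chr3:89869324-89913196), the alpha chain for IL-6, had 0, 0.173 and 0.252 FPKM in ctrl and 1.11, 0.755 and 1.26 FPKM in IOP retinas of mice 3, 4 and 6. In mice 1, 2 and 5 it had 0.125, 0.0817 and 0.412 FPKM in control eyes and 0.964, 0.229 and 3.12 FPKM after IOP elevation. It was higher in all 6 mice, although the IOP_GCV retina of mouse 2 lay below the ctrl_GCV retina of mouse 5 and the ctrl retina of mouse 6. With 181 estimated fragments against 26, the ratio was 7.47 (exact 95% interval 4.93 to 11.7, counting error only). The IOP_GCV retina of mouse 5 held 86 of the 181, and without it the ratio was 4.88 (3.14 to 7.85). The difference of 0.84 (SE 0.24, adjusted p = 0.0490) was close to the threshold, and 3 of the 12 fits without 1 library called it (adjusted p 0.00948 to 0.117).

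Cntfr (chr4:41657498-41697091), the alpha chain that binds CNTF, was the member that fell. It had 17.2, 23.3 and 13.8 FPKM in ctrl and 8.35, 17.2 and 6.59 FPKM in IOP retinas of mice 3, 4 and 6. In mice 1, 2 and 5 it went from 21.0, 28.7 and 21.8 FPKM in control to 13.6, 15.4 and 6.16 FPKM after IOP elevation. It was lower in the IOP-treated eye of every mouse, at 0.283 to 0.739 of the control level, but the IOP retina of mouse 4 and the IOP_GCV retina of mouse 2 lay within the range of the 6 control retinas. Over all mice the difference was -0.91 (SE 0.26, adjusted p = 0.0497; 0.0310 with the eyes paired). It was not called within 3 mice (adjusted p = 0.286 and 0.175), and 2 of the 12 fits without 1 library called it (adjusted p 0.01 to 0.125).

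Retinal ganglion cell genes also summed lower in the IOP-treated eye of every mouse. Their sum was 929 to 1183 FPKM in ctrl, 226 to 1022 in IOP, 1169 to 1889 in ctrl_GCV and 345 to 751 in IOP_GCV retinas. In mouse 4 the sum was 1066 FPKM in the control eye and 1022 FPKM in the IOP-treated eye, with Cntfr at 23.3 and 17.2 FPKM. The IOP_GCV retina of mouse 2 had a sum of 578 FPKM, with Cntfr at 15.4 FPKM, within the control range. Of 11 such genes, from Sncg with a mean of 363 FPKM to Pou4f3 with 2.05 FPKM, 9 were called lower over all mice, where 5.44% of all genes were. With the eyes paired 3 were called, where 7.3% of all genes were called in either direction. None of the 11 was at 0 throughout. In bulk retina, fewer cells of a type and less RNA per cell cannot be told apart, and the part of ganglion cells in the fall of Cntfr was not tested.

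**Figure D2:**
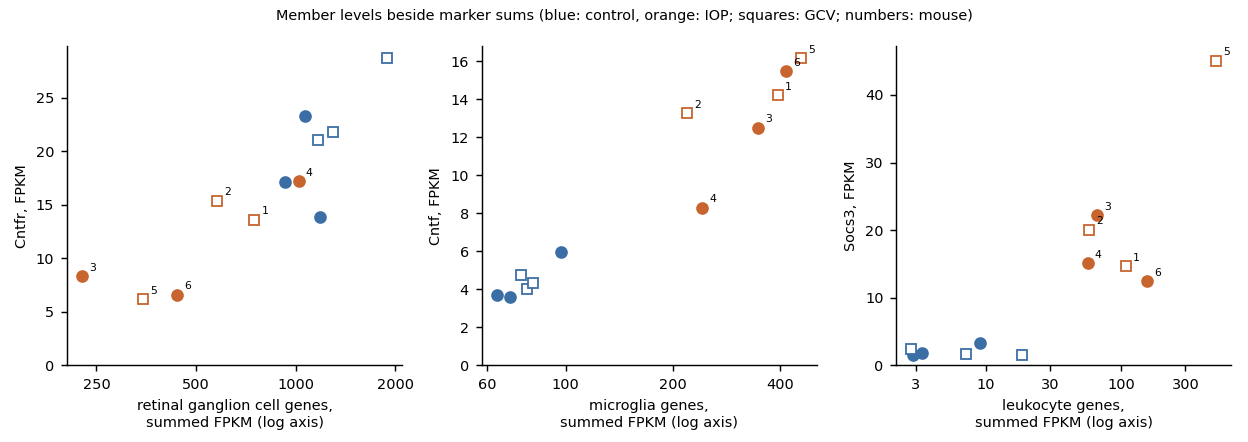
Levels of Cntfr, Cntf and Socs3 (vertical axes, FPKM) in the 12 retinas against the summed FPKM of marker genes of ganglion cells, microglia and infiltrating leukocytes (log axes). Blue marks control and orange IOP-treated retinas, squares mark GCV and numbers give the mouse. For Cntfr, the IOP retina of mouse 4 (17.2 FPKM) and the IOP_GCV retina of mouse 2 (15.4 FPKM) lie within the control range. Their ganglion cell sums were 1022 and 578 FPKM.

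The balance among the receptor genes differed between control and IOP-treated retinas, though some neighbours in level had overlapping ranges. In control retinas Cntfr (mean 21.0 FPKM) and Il6st (17.8 FPKM) had overlapping ranges, with Cntfr the higher in 4 of 6 retinas, and Lifr (9.50 FPKM) and Osmr (1.49 FPKM) lay below without overlap. In IOP-treated retinas Il6st led with 31.6 FPKM, while Lifr (12.0 FPKM) and Cntfr (11.2 FPKM) overlapped. As a share of the 5 receptor genes summed, Cntfr went from 41.6% ± 7.3 to 18.2% ± 7.8 (SD, n = 6 retinas) and was lower in all 6 mice. The share of Il6st went from 35.9% ± 3.9 to 50.5% ± 6.5 and that of Osmr from 3.02% ± 0.98 to 10.2% ± 1.2, both higher in all 6 mice. Lifr held 19.2% ± 3.0 and 19.3% ± 2.2, and Il6ra 0.348% ± 0.289 and 1.92% ± 1.35. The sum itself was 49.9 ± 3.8 FPKM in control eyes and 62.3 ± 6.4 FPKM after IOP elevation. These shares are descriptions and were not tested.

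**Figure D3:**
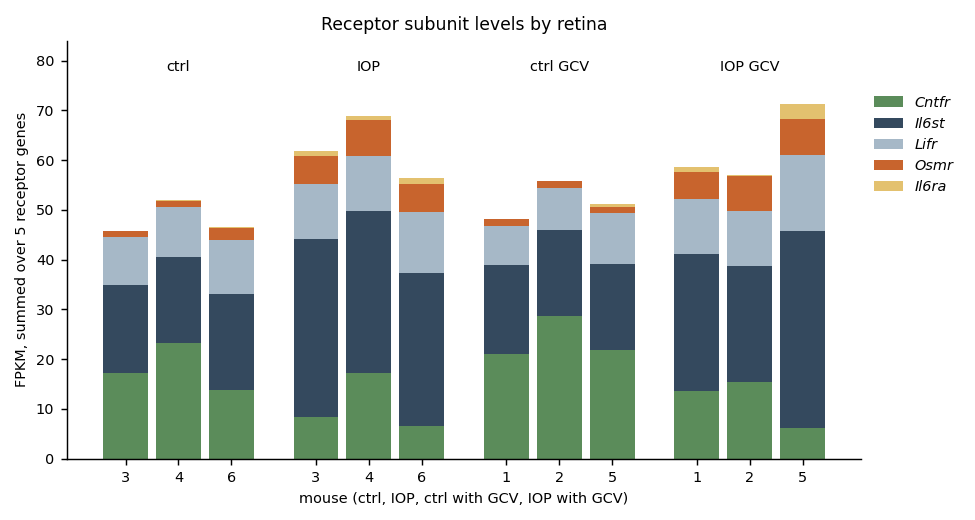
Stacked FPKM of the 5 receptor genes in each retina, grouped as ctrl, IOP, ctrl with GCV and IOP with GCV, with the mouse under each bar. The Cntfr segment is smaller in the IOP-treated eye of every mouse and the Il6st and Osmr segments are larger.

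Socs3 (chr11:117966079-117970336), the feedback inhibitor and itself a STAT3 target, had the largest difference of the 10 genes on the log2(FPKM + 1) scale. It had 1.91, 1.5 and 3.27 FPKM in ctrl and 22.3, 15.1 and 12.5 FPKM in IOP retinas of mice 3, 4 and 6. In mice 1, 2 and 5 it had 2.38, 1.73 and 1.48 FPKM in control eyes and 14.7, 20.1 and 45.1 FPKM after IOP elevation. The groups were far apart, and within mice the level was 3.82 to 30.5 times higher. The difference was 2.45 (SE 0.38, adjusted p = 0.0151; 0.0781 with the eyes paired) without GCV and 3.13 (SE 0.38, adjusted p = 0.00563; 0.0410 paired) with GCV. Over all mice it was 2.79 (SE 0.27, adjusted p = 0.000417), and all 12 fits with a library removed called it. In control retinas Socs3 was above Osmr in all 6 libraries, with overlapping ranges, and in IOP-treated retinas it stood next below Il6st, again with overlapping ranges.

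Because STAT dimers bind palindromes of the form TTCNNNGAA, with N any base, this pattern was sought in the 250 bases before and 50 after each RefSeq start site (GRCm38.p6). The pattern is its own reverse complement, so both strands are covered. Of 9 members with a window, Socs3 alone held a match, which begins at position -154 from its start site. This is 11.1% of those members, near the 9.55% of all genes with a window that held one (8.30% of all windows). The 250 bases upstream of Socs3, at chr11:117969367-117969616 on the minus strand and inside the span that RefSeq gives the gene, are shown 5′ to 3′ with the match in capitals, since this gene had the largest difference.
Socs3: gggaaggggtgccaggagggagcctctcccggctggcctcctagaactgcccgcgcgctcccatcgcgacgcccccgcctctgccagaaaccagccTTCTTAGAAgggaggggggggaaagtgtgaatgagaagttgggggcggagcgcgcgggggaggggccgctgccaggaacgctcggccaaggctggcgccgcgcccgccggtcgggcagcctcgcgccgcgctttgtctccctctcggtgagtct

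Among the other pathway genes called higher over all mice, Gfap, Irf1, Icam1 and Bcl6 also held the pattern, and each match is shown with the bases around it for comparison with that of Socs3. They lie at chr11:102897184-102897212 on the minus strand, chr11:53769914-53769942 and chr9:21015888-21015916 on the plus strand, and chr16:23981353-23981381 on the minus strand. Bcl6 held further matches, of which the nearest to a start site is shown. Of 25 members and pathway genes called higher that have a window, 5 (20%) held the pattern, as did 9.55% of all genes with a window, and the difference was not tested.
Gfap: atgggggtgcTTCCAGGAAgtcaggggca
Irf1: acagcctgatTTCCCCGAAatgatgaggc
Icam1: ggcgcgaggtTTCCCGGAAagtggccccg
Bcl6: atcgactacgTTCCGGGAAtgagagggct

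Microglia and leukocyte genes rose in the same retinas as Cntf, Socs3 and Lif. Microglia genes summed to 64.0 to 96.8 FPKM in ctrl, 242 to 415 in IOP, 74.8 to 81.0 in ctrl_GCV and 220 to 460 in IOP_GCV retinas. Over all mice, 6 of 10 were called higher and 1 lower, where 6.76% of all genes were called higher and 5.44% lower. Means of the 10 ran from 88.7 FPKM (C1qb) to 0.648 FPKM (Siglech). Genes of infiltrating leukocytes summed to 2.85 to 8.95 FPKM in ctrl, 56.5 to 155 in IOP, 2.79 to 18.5 in ctrl_GCV and 58.0 to 507 in IOP_GCV retinas. Of 12 listed genes 10 were tested, and 7 were called higher over all mice, where 6.76% of all genes were. S100a8 had the highest mean, 38.0 FPKM, and Mpo was at 0 in every library. The IOP_GCV retina of mouse 5 had the highest sum of both lists, and also the highest Socs3, Lif, Clcf1, Il6ra, Il6st, Lifr and Cntf and the lowest Cntfr of all retinas. Without both eyes of mouse 5, a choice made after seeing the values, 6 members were called, where 4.03% of all genes were, and Cntfr was not (adjusted p = 0.167). The part of these cells in the rise of the members was not tested. Müller glia genes summed to 1370 to 1776 FPKM in control eyes and 744 to 1289 FPKM after IOP elevation, lower in all 6 mice, with Glul the most abundant. Of these 10 genes, 1 was called higher and 2 lower over all mice, where 6.76% and 5.44% of all genes were. Astrocyte, rod, cone, endothelial, pigment epithelium, ciliary and blood lists had at most 1 gene called in each direction over all mice. Of 10 lens genes 5 were called higher, where 6.76% of all genes were.

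**Figure D4:**
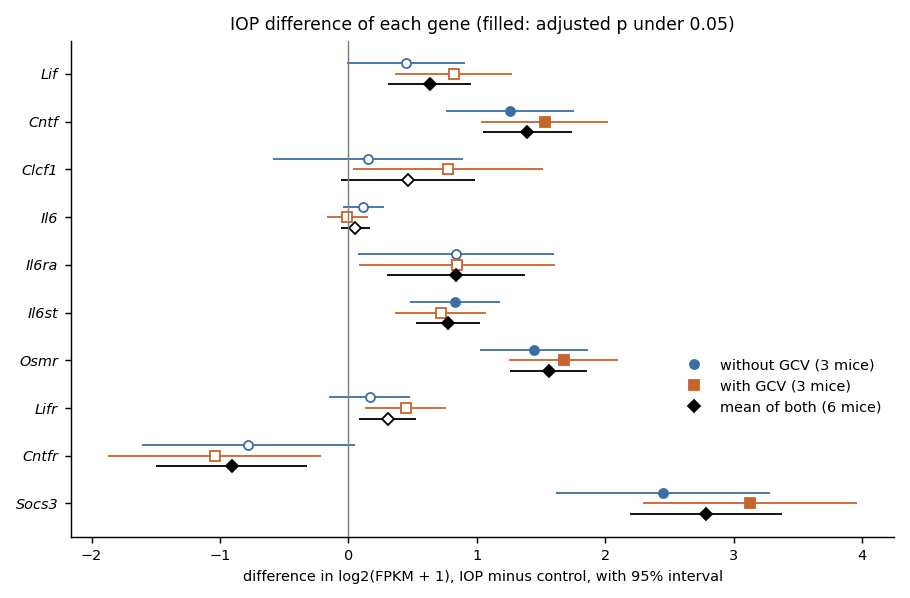
Difference in log2(FPKM + 1) between IOP-treated and control retinas for each gene, with 95% intervals from limma, without GCV (blue), with GCV (orange) and as the mean of both (black); filled symbols passed an adjusted p of 0.05. Cntfr is the only gene whose 3 estimates all lie below 0, and Socs3 has the largest, at 2.45, 3.13 and 2.79.

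To ask whether these responses differed under GCV, the IOP effect with GCV was compared with that without GCV. All 12 libraries come from mice with the transgene, and GCV went to different mice. Killing of p16-expressing cells therefore cannot be told apart from other effects of GCV or from differences between mice. The differences between the effects ranged from -0.26 (Cntfr) to 0.68 (Socs3) and none was called (smallest adjusted p = 0.997), where 0% of all genes were called. At an unadjusted p under 0.05, 0 of the 10 genes passed, and 358 (1.93%) of all genes. For Socs3 the 95% interval was -0.50 to 1.86, for Lif -0.28 to 1.02 and for Osmr -0.37 to 0.83. Between IOP_GCV and IOP retinas, which come from different mice, the differences were -0.16 (Il6st) to 0.74 (Clcf1). None was called, where 0% of all genes were. At an unadjusted p under 0.05, 774 (4.18%) of all genes passed, and Clcf1 had the smallest unadjusted p of the members, 0.0497. Both Clcf1 values rest in part on the 0 FPKM of the IOP retina of mouse 6, which may be a failed estimate. In control retinas GCV against no GCV gave -0.18 (Lifr) to 0.40 (Cntfr), again with none called, where 0% of all genes were and 295 (1.59%) passed an unadjusted p under 0.05.

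The other genes of the pathway were taken as lists of 57 genes in all, of which 56 were above 0. Of these, 11 were called higher without GCV, 14 with GCV and 23 over all mice, where 1.42%, 1.65% and 6.76% of all genes were, and 2 were called lower over all mice, where 5.44% of all genes were. With the eyes paired, the calls without GCV were 4 genes known to respond to STAT3 and 1 JAK or STAT gene (0.405% of all genes). With GCV they were 9 and 2 (0.778% of all genes). Other ligands of the family were low and none was called. Il27 was listed at 0 FPKM in control retinas and 1.07 ± 1.17 FPKM (SD, n = 6) in IOP-treated ones (adjusted p = 0.0985), and Ebi3, which forms interleukin-27 with it, went from 0.923 ± 0.356 to 2.70 ± 2.89 FPKM (adjusted p = 0.167). Osm, the ligand of the receptor that rose, had 0.011 ± 0.027 and 0.241 ± 0.318 FPKM (adjusted p = 0.163), and Il11 0.0349 ± 0.0565 and 0.173 ± 0.126 FPKM (adjusted p = 0.0876). Ctf1 had 2.96 ± 0.56 and 2.76 ± 0.83 FPKM, Il31 was above 0 in 1 library and Ctf2 in none. Of the other receptors, Il11ra1 had 12.4 ± 1.2 and 13.9 ± 2.0 FPKM (adjusted p = 0.373) and may share reads with its near copies, and Il27ra and Il31ra were below 0.1 FPKM in mean level.

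Among the JAK and STAT genes, Stat3 was called higher in both groups of mice. Stat3, the main effector of gp130, had 9.91 to 14.8 FPKM in control eyes and 33.2 to 52.1 FPKM after IOP elevation (1.77, SE 0.11, adjusted p = 0.000106 over all mice). Jak1, the most abundant kinase of the list, fell from 43.5 ± 1.8 to 36.7 ± 2.6 FPKM (SD, n = 6; -0.24, SE 0.06, adjusted p = 0.0243), and Stat5b from 10.6 ± 1.1 to 6.54 ± 2.30 FPKM (-0.69, SE 0.18, adjusted p = 0.0395). Both were lower in all 6 mice and neither passed with the eyes paired (adjusted p = 0.0604 and 0.0515). Jak2, Tyk2 and Stat5a had differences of 0.30, 0.33 and 0.37 that did not pass.

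Besides Socs3, the 15 other feedback and phosphatase genes had a median difference of 0.02 over all mice. Only 3 phosphatases were called, all higher, where 6.76% of all genes were called higher. Ptpn6, the SHP-1 phosphatase of blood cells, was at 1.11 ± 0.52 and 13.1 ± 10.3 FPKM (2.48, SE 0.43, adjusted p = 0.00704). Ptpn2, which acts on JAKs and STATs, went from 31.9 ± 2.8 to 71.5 ± 31.3 FPKM (1.05, SE 0.19, adjusted p = 0.00865) and Ptpn1 from 9.12 ± 0.92 to 16.0 ± 4.8 FPKM (0.72, SE 0.16, adjusted p = 0.0203). No other SOCS gene was called. Of the proteases that shed receptor ectodomains, Adam17 was higher in all 6 mice (adjusted p = 0.0626) and Adam10 in 5 (adjusted p = 0.406), and neither was called.

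Of 22 genes known to respond to STAT3, 9 were called higher without GCV, 12 with GCV and 18 over all mice (4, 9 and 15 with the eyes paired), where 1.42%, 1.65% and 6.76% of all genes were called higher, and none was called lower, and the median difference over all mice was 1.52 against 0.01 for all genes. The 8 with the smallest adjusted p were Cebpd, Edn2, Bcl3, Bcl6, Fgf2, Junb, Lcn2 and Timp1. Edn2, endothelin-2, a signal of stressed photoreceptors, went from 2.79 ± 1.22 to 52.1 ± 18.4 FPKM (3.81, SE 0.26, adjusted p = 0.000131). Cebpd, a transcription factor of the acute phase, went from 3.41 ± 0.55 to 42.7 ± 14.3 FPKM (3.23, SE 0.22, adjusted p = 0.000131). Lcn2, lipocalin-2, went from 16.4 ± 4.7 to 259 ± 205 FPKM (3.63, SE 0.42, adjusted p = 0.000959), and Timp1, a metalloprotease inhibitor, from 1.15 ± 1.01 to 25.1 ± 20.1 FPKM (3.43, SE 0.41, adjusted p = 0.00107). Junb and the repressor Bcl6 changed by 2.06 (SE 0.23) and 1.13 (SE 0.12). Many of these genes also respond to other pathways, so the list does not isolate gp130 signaling.

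**Figure D5:**
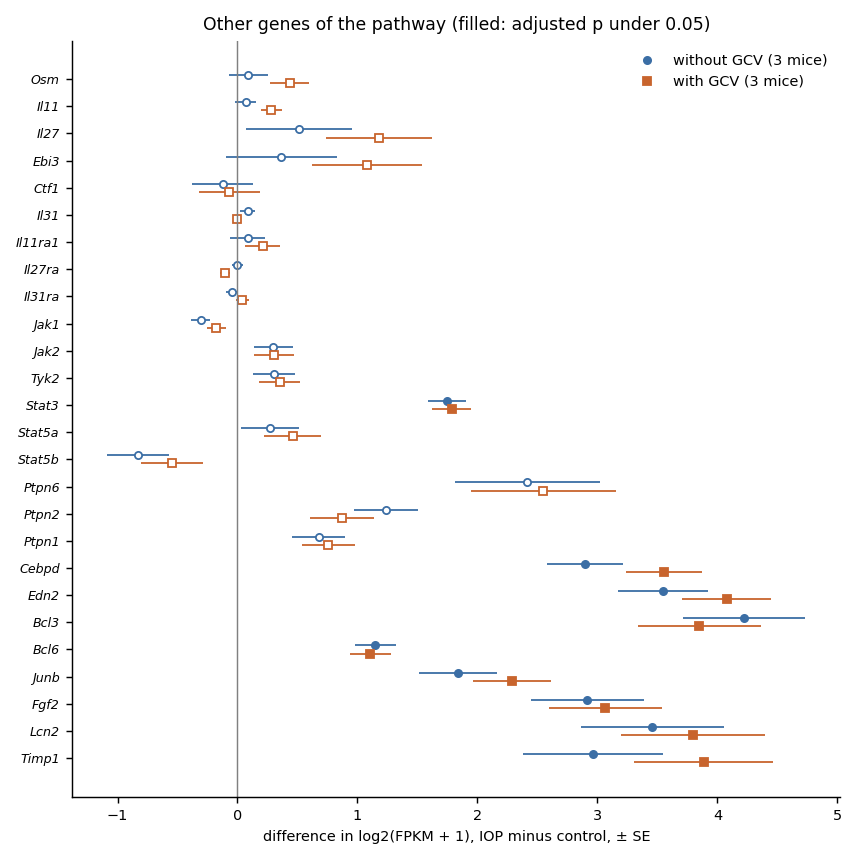
Difference in log2(FPKM + 1) between IOP-treated and control retinas with its SE for the other pathway genes, without GCV (blue circles) and with GCV (orange squares), filled where the adjusted p was under 0.05. Stat3 and the 8 STAT3-responsive genes shown are filled in both groups of mice, and the other ligands and receptors are open.

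The genes whose levels ran most like those of the members over the 12 libraries were named by Pearson's r of log2(FPKM + 1) among 12910 genes. This is a description, since the libraries share the contrast between eyes. For Socs3 they were Tnfrsf1a, Pros1, Glipr2, Irf7 and Parp3 (r 0.983 to 0.989), and for Osmr Stat3, Pbxip1, Oasl2, Trim34a and Edn2 (0.969 to 0.983). Cntf ran with Clec7a, C1qb, C1qa, Clic1 and Ltbr (0.966 to 0.976), of which C1qa and C1qb are in the microglia list. Lif ran with Cebpb, Cdsn, Pilra, Itga5 and Il4ra (0.964 to 0.981), Il6ra with Ccl3, Hk3, Sh3bp2, Adgre5 and Lyn (0.975 to 0.986), and Il6st with Samd9l, Ccl2, Plaur, Cd47 and Klhl29 (0.969 to 0.990). Clcf1 ran with Dok3, Pim1, Lmna, Sipa1 and Rps6ka1 (0.952 to 0.973), and Lifr with Ankfy1, Ptgs1, Trim25, Pus7l and Tle4 (0.927 to 0.963). Cntfr ran with Grm2, Grm7, Mpp2, Gdap1l1 and 6430573F11Rik (0.975 to 0.987), of which Grm2 and Grm7 encode neuronal glutamate receptors.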

How the data were processed

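RNA of 12 retinas was sequenced as stranded mRNA libraries with paired reads of 50 bases. Per the study's methods the authors counted fragments on exons of RefSeq genes with HOMER, and the submitters' processing notes name TopHat2, Bowtie2, Cufflinks and Cuffdiff and the build mm10. The deposited values are FPKM, a unit inferred from the values, and whether strand was used in counting is not given in the sources used here. In mm10 (GRCm38), coordinates and promoter sequences are from RefSeq tables of GRCm38.p6, in which 9 members have a promoter window. Receptor protein sequences were not analysed here.

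The log2(FPKM + 1) of all 12 libraries entered 1 model in limma (version 3.58.1, R 4.3.3) that had a mean for each of 4 groups, a variance trend and Benjamini-Hochberg adjustment. The fit was tested on simulated data. Contrasts were IOP against control without GCV and with GCV, their mean over the 6 mice, their difference, and GCV against no GCV in each kind of eye. The eyes of a mouse are paired by animal, and deviations of paired eyes from their group means correlated at -0.12 to 0.39 over 12910 genes. Other fits were the mouse as a block, fits to just the groups of a contrast, a pseudocount of 0.1, quantile normalization, median-ratio scaling, no trend, other thresholds, removal of genes that reached 1 FPKM in fewer than 3 libraries, and removal of each library. Leaving out both eyes of mouse 1, 4, 5 or 6, and the IOP_GCV retina of mouse 5 from ratios of fragments, was added after seeing the data. Depth was inferred from the steps between low FPKM values of 1904 genes with a single transcript, of which 80.9% to 87.9% per library fell within 0.15 of whole fragments. Intervals of ratios of estimated fragments cover counting error only.

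The members, the lists and the tests were chosen with earlier results of these data known. Named are the 10 members, the other ligands and receptors of the family and the JAK and STAT genes (some are not reported here), up to 8 called genes of each further list by smallest adjusted p over all mice, Cdkn2a, and for likeness the 5 genes with the highest r. Zfp91 and the genes with a sequence match were named after their values were seen. Python 3.11.15, pandas 2.3.3, scipy 1.17.1 and matplotlib 3.10.9 were used.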

Additional observations from a re-analysis of the deposited data

How the results depend on the processing

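The number of members called moved most in the groups of 3 mice. The share of all genes called moved too and is given in parentheses. With GCV, 3 were called (1.8%), 5 with a pseudocount of 0.1 (2.89%), 0 when only the 2 groups compared were fitted (0.0378%), 5 at an adjusted p under 0.1 (4.21%) and 9 at an unadjusted p under 0.05 (19.2%). Without GCV, 4 were called (1.65%), 3 when only the 2 groups compared were fitted (1%) and 1 with the mouse as a block (0.405%). This pairing by mouse changed no other call of a member. IOP_GCV against IOP gave 1 at an unadjusted p under 0.05 (4.18%). Over all mice, 7 were called (12.2%), 6 after quantile normalization (16%), 5 with no variance trend (12.4%) and 4 without both eyes of mouse 6 (4.85%). Quantile normalization lost Il6ra, and the fit with no trend lost Il6ra and Cntfr. With 1 library left out, the counts were 0 to 4 without GCV (0 without the ctrl retina of mouse 3 or 4, 0.108% and 0.162%, then 1 on leaving out the IOP library of mouse 3, 0.427%, 2 on leaving out the IOP library of mouse 6, 1.08%, and 4 on leaving out the IOP library of mouse 4, 13.1%), 2 to 5 with GCV (2 without any 1 ctrl_GCV retina, 0.335% to 0.465%, and 5 without the IOP_GCV retina of mouse 2, 3.77%) and 4 to 7 over all mice (4 without any 1 of the 6 control retinas or the IOP retina of mouse 3, 4.26% to 6.38%, and 7 without the IOP retina of mouse 4, 24.3%). The cause of these moves was not tested.

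No value that changed sign had passed the test. Clcf1 without GCV went to -0.15 with the pseudocount of 0.1, and ranged from -0.0669 to 0.55 with 1 library left out. The difference of IOP effects of Il6ra went to -0.48 with that pseudocount and -0.0732 after quantile normalization, and ranged from -0.46 to 0.41 with 1 library left out. The same range was -0.32 to 0.0498 for Il6st and -0.52 to 0.11 for Cntfr, and for Il6 with GCV it was -0.0635 to 0.0563. The calls of Cntf, Il6st, Osmr and Socs3 over all mice held in all alternatives run for that contrast. Il6, and Lif in control retinas, rested on a few fragments per library, so depth limits what they can show.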
